A study of Homo sapiens with 18 samples.

Results

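The 30 genes described here encode enzymes of the tricarboxylic acid (TCA) cycle and of the reactions that feed it with or draw from it carbon, nitrogen and reducing power. They were taken by symbol from the 23106 genes in the count files, and all 30 were found. By role, 13 encode enzymes of the cycle in the mitochondrial matrix, 5 handle citrate, NADP-dependent isocitrate and 2-hydroxyglutarate, 6 join malate, pyruvate and phosphoenolpyruvate (PEP), and 6 handle glutamine, glutamate and the malate-aspartate shuttle. PolyA+ RNA was sequenced from 3 established human cell lines in normoxia and in hypoxia, with 3 samples per condition and 18 in all. HKC-8 is labelled as a line of kidney proximal tubule cells, RCC4+VHL is a kidney cancer line stably transfected with the wild-type VHL tumour suppressor, so that its normoxic and hypoxic samples both carry the transgene, and HepG2 is a hepatocellular cancer line. The labels give the hypoxic exposure as 0.5% oxygen for 16 h in HKC-8 and HepG2 cells and as 1% for 24 h in RCC4+VHL cells. For hypoxic HKC-8 cells the sample titles state 0.1% instead, and the text of the study describes a single exposure for all lines. The labels do not say whether the 3 samples of a condition came from separate cultures, so the p-values measure the spread between these samples, which may be technical.

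In the TCA cycle, acetyl groups are joined to oxaloacetate by citrate synthase and oxidised stepwise by dehydrogenases, and the electrons pass to the respiratory chain, where oxygen accepts them. Anaplerosis is the refilling of the cycle, chiefly through pyruvate carboxylase and through glutamine, which is converted to glutamate and then to 2-oxoglutarate. Cells in low oxygen are known to divert pyruvate away from the mitochondria through hypoxia-inducible factor (HIF), a transcription factor that binds a short core motif in DNA, and to draw more of their citrate from glutamine by reductive carboxylation, the reverse reaction of the NADP-dependent isocitrate dehydrogenases.

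The upstream sequences of 4 genes are shown because these genes, among those with a promoter entry, were called in the same direction in all 3 lines: IDH2 rose, and IDH3A, FH and GOT2 fell. Each sequence is the 250 bases before the transcription start, 5′ to 3′ on the strand of the gene, and capitals mark the core of the HIF motif (ACGTG or GCGTG, or the reverse complement of either, with overlaps allowed). Those of IDH3A, FH and GOT2 are RefSeq sequences (GRCh38.p14) placed on GRCh37, the build of the counts, by an exact match.
IDH2 (GRCh37 chr15:90645701-90645950, minus strand): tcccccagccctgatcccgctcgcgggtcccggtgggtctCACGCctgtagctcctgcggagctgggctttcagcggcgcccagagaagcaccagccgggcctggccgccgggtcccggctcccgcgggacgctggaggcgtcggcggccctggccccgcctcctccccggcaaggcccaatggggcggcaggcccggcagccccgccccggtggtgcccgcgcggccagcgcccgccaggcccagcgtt
IDH3A (GRCh37 chr15:78441454-78441703, plus strand): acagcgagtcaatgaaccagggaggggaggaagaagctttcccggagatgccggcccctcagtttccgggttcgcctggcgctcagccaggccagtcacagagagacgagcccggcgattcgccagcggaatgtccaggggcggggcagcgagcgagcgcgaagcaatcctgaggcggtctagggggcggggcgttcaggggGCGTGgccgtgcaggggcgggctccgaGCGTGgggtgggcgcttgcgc
FH (GRCh37 chr1:241683056-241683305, minus strand): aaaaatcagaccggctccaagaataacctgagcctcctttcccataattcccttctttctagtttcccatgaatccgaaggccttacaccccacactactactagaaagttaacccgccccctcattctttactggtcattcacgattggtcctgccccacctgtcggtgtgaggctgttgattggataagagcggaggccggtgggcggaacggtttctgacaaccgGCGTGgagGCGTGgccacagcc
GOT2 (GRCh37 chr16:58768221-58768470, minus strand): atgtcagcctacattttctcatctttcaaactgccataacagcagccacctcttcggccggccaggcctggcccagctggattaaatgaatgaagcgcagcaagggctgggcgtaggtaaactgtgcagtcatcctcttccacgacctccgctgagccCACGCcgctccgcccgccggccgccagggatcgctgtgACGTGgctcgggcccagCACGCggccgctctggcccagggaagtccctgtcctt
For IDH2, the RefSeq window started 1847 bases inside the gene, so the sequence was read from GRCh37 at the start of the main GENCODE transcript. The core occurred once in IDH2, 2 times each in IDH3A and FH and 3 times in GOT2. Among the RefSeq windows of 300 bases (250 before and 50 after the start), 27 of the 30 genes had an entry, and OGDH, PCK1 and GPT2 had none. The start of 25 of the 27 windows lay within 100 bases of the main transcript start, the exceptions being IDH1 and IDH2. The core was found in 18 of the 27 windows (66.7%) against 48.4% of 35116 promoters of the same length, and its form with A (ACGTG) in 6 (22.2%) against 21.4%. A match describes the letters and is not a binding site.

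The total count per sample lay between 40915980 and 97984260, with the HKC-8 libraries the deepest, so depth cannot be told apart from that line. At these depths 3 counts in a sample equalled 0.0306 to 0.0733 CPM, the unit that sets a count against the library total, a floor that covers counting error only. Samples of 1 group differed by more than counting noise in all 18 replicate pairs, and none was counted as a duplicate. HepG2 cells held the liver transcripts ALB, APOB and AFP at 6881 to 13064 CPM on average in each condition. HKC-8 and RCC4+VHL cells held the renal factor PAX8, but the proximal tubule receptors LRP2 and CUBN had under 1 CPM on average in each condition of both lines. Of the leukocyte markers, PTPRC and CD3E were at 0 or under 0.1 CPM on average in every condition, whereas CD68, a lysosomal protein of macrophages, was at 6.63 to 13.2 CPM on average in HKC-8 and RCC4+VHL cells and rose from 48.4 to 63.2 CPM in HepG2 cells (adjusted p = 0.000584). Its part in the results was not tested. Values below are CPM after TMM scaling within a line, log2 fold changes are hypoxia minus normoxia, SE is the standard error, given as the second number in parentheses after the first in a paragraph, and a gene was called at an adjusted p under 0.05 in edgeR's quasi-likelihood test across all genes.

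Hypoxia changed these genes by little on the whole, and more were called down than up in every line, though in HKC-8 cells this turned round in 4 of the 6 fits that left out 1 sample. In HKC-8 cells 29 of the 30 genes could be tested, and 4 were induced, against 11.2% of all genes tested, and 6 repressed, against 9.12%. In RCC4+VHL cells 28 were tested, of which 3 were induced, against 25.9% of all genes, and 15 repressed, against 24.2%. In HepG2 cells 28 were tested, of which 4 were induced, against 19.9% of all genes, and 10 repressed, against 19.2%. Small changes were not equally easy to call in the lines. In simulated counts in which few genes changed, by 0.5 on the log2 scale, 21.1% of these were called in HKC-8 cells. The share was 81.9% in RCC4+VHL and 69.5% in HepG2 cells. The numbers of calls therefore cannot be compared between lines as if a change were equally likely to be called. The median log2 fold change of the tested genes was -0.16 in HKC-8, -0.10 in RCC4+VHL and -0.09 in HepG2 cells, whereas that of all genes tested was 0.00, -0.00 and -0.00. In bulk RNA, fewer cells of a type and less RNA per cell cannot be told apart. A call with a log2 fold change of 0.58 or more in size was found for 3 genes upwards and 0 downwards in HKC-8 cells, against 7.06% and 1.83% of all genes tested. It was found for 0 and 1 in RCC4+VHL cells, against 5.51% and 2.45%, and for 1 and 0 in HepG2 cells, against 8.26% and 2.91%.

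In the unpaired tests of each line apart with all its samples, genes called in more than 1 line were called in the same direction. Opposite calls were rare among all genes too. Of the 26 genes tested in all lines, 2 were induced in each (IDH2 and GPT2), against 3.81% of all genes tested in every line, and 3 were repressed in each (IDH3A, FH and GOT2), against 3.43%. In 1 fit of all 18 samples, the call of GPT2 in RCC4+VHL cells (adjusted p = 0.106) and that of FH in HepG2 cells (0.0518) were lost. In the unpaired tests of each line apart, by edgeR and by DESeq2, none of the 30 was induced in one line and repressed in another. The share was 4.67% of all genes tested in any line by edgeR. In the fit of all 18 samples 1 matrix enzyme was induced in HKC-8 cells. Of the matrix enzymes, only OGDHL (0.56) and SUCLG2 (0.06) had a log2 fold change above 0 in HKC-8 cells fitted apart. The call of OGDHL as repressed in RCC4+VHL cells was kept in the fit of all 18 samples. In all, 6 genes were induced in at least 1 line, against 35.3% of all genes tested in any, 19 were repressed, against 32.1%, and 5 were called in none, against 37.3%. The calls in HKC-8 cells depended on the pairing of samples. When same-numbered samples were paired in the fit (the replicate block), 6 genes were induced, against 21% of all genes, and 13 repressed, against 21.6%, and these 19 included all 10 of the unpaired test. OGDHL was then induced in HKC-8 and repressed in RCC4+VHL cells. Leaving out normoxia replicate 1 left 1 repressed gene in HKC-8 cells, leaving out normoxia replicate 2 or hypoxia replicate 1 or 3 left 2 each, with 3 to 5 induced genes in these 4 fits, and leaving out either of the other samples left between 6 and 8. In RCC4+VHL cells the fit of all 18 samples kept 1 induced, against 12.2% of all genes, and 6 repressed genes, against 9.27%. The calls it lost there beside GPT2 were those of SUCLG2 (adjusted p = 0.126), ACO1, CS, DLD, GOT1, IDH3G, MDH1, MDH2, ME1 and OGDH (0.0648 to 0.449).

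**Figure D1:**
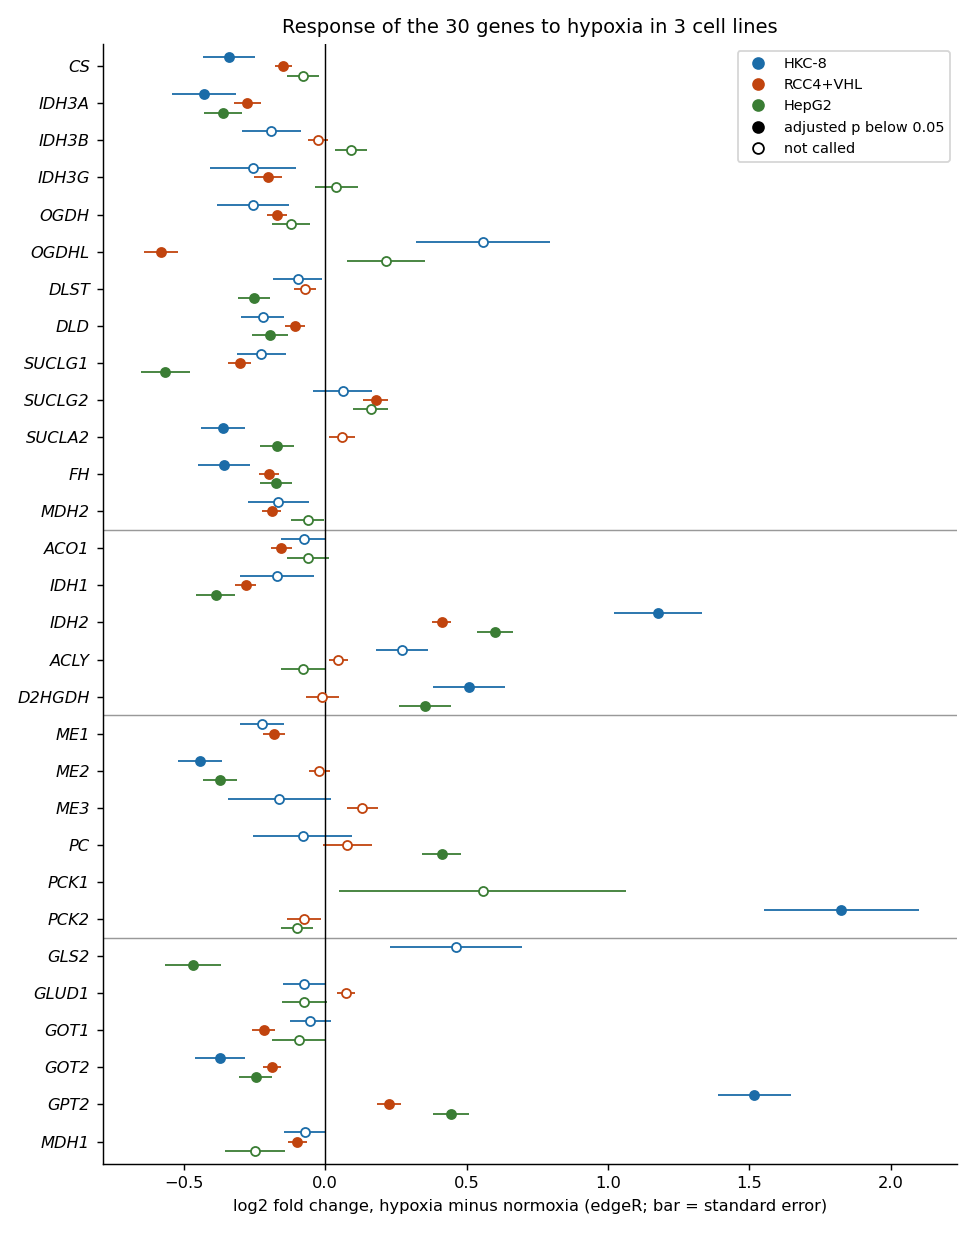
Log2 fold change, hypoxia minus normoxia, of each gene in the 3 cell lines (edgeR, bars are standard errors, filled points have an adjusted p below 0.05), with lines between the 4 role groups. IDH2 and GPT2 lie right of 0 in every line, PCK2 at 1.82 only in HKC-8 cells, and IDH3A, FH and GOT2 left of 0 in every line.

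IDH2 and IDH1 encode the mitochondrial and the cytosolic NADP-dependent isocitrate dehydrogenase, which interconvert isocitrate and 2-oxoglutarate. IDH2 (chromosome 15, 90626277 to 90645709 in GRCh37) stood at 13.9, 12.4 and 19.4 CPM in the normoxic HKC-8 samples and at 33.7, 35.9 and 33.8 CPM in the hypoxic ones. The RCC4+VHL samples stood at 153, 153 and 149 CPM in normoxia and at 204, 202 and 200 CPM in hypoxia. In HepG2 cells the values were 107, 96.3 and 94.0 CPM against 155, 147 and 148 CPM. Every hypoxic sample thus lay above every normoxic sample of its line. The log2 fold change was 1.18 (SE 0.16, adjusted p = 0.0017) in HKC-8, 0.41 (0.03, adjusted p = 6.64e-10) in RCC4+VHL and 0.60 (0.06, adjusted p = 8.25e-06) in HepG2 cells.

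IDH1 went the other way where it was called. Its log2 fold change was -0.28 (SE 0.04, adjusted p = 1.8e-06) in RCC4+VHL and -0.39 (0.07, adjusted p = 0.000678) in HepG2 cells, and in HKC-8 cells it was -0.17 (0.13, adjusted p = 0.387). HepG2 cells held 899, 794 and 816 CPM of it in normoxia and 682, 630 and 605 CPM in hypoxia, with no overlap. Per kilobase of transcript, the ratio of IDH2 to IDH1 within a sample was 0.111 ± 0.0140 (SD, n = 3) in normoxic and 0.291 ± 0.0495 in hypoxic HKC-8 cells. It was 0.871 ± 0.0353 and 1.41 ± 0.0639 in RCC4+VHL cells, and 0.103 ± 0.00267 and 0.205 ± 0.00723 in HepG2 cells. The mitochondrial transcript therefore gained on the cytosolic one in each line without overlap between conditions, and was the more abundant only in hypoxic RCC4+VHL cells. An exact two-sided permutation test of the log ratios gave p = 0.1 in each line, the smallest that 3 samples against 3 allow, so the design cannot reach 0.05 in this test.

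D2HGDH encodes the mitochondrial enzyme that oxidises D-2-hydroxyglutarate back to 2-oxoglutarate. It was at 15.5, 16.4 and 13.5 CPM in normoxic and 22.2, 23.7 and 18.6 CPM in hypoxic HKC-8 cells, a log2 fold change of 0.51 (SE 0.13, adjusted p = 0.0233). In HepG2 cells it was at 18.8, 18.8 and 17.5 CPM in normoxia and 26.2, 23.3 and 20.8 CPM in hypoxia, a log2 fold change of 0.35 (0.09, adjusted p = 0.00787). The groups did not overlap in either line, while in RCC4+VHL cells all 6 samples lay between 23.2 and 24.2 CPM. The call was lost in HKC-8 cells without hypoxia replicate 1 (adjusted p = 0.0922) or normoxia replicate 1 (0.0813), and in HepG2 cells without hypoxia replicate 1 (0.0556). ACO1, the cytosolic aconitase that is also an iron-regulatory protein, was repressed in RCC4+VHL cells alone among the calls, by a log2 fold change of -0.15 (adjusted p = 0.00121). ACLY, which splits exported citrate to acetyl-CoA, passed in no line, with 0.27 (adjusted p = 0.0626), 0.05 (0.232) and -0.08 (0.483) in HKC-8, RCC4+VHL and HepG2 cells, and with the replicate block it was 0.28 in HKC-8 cells (adjusted p = 0.00461).

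**Figure D2:**
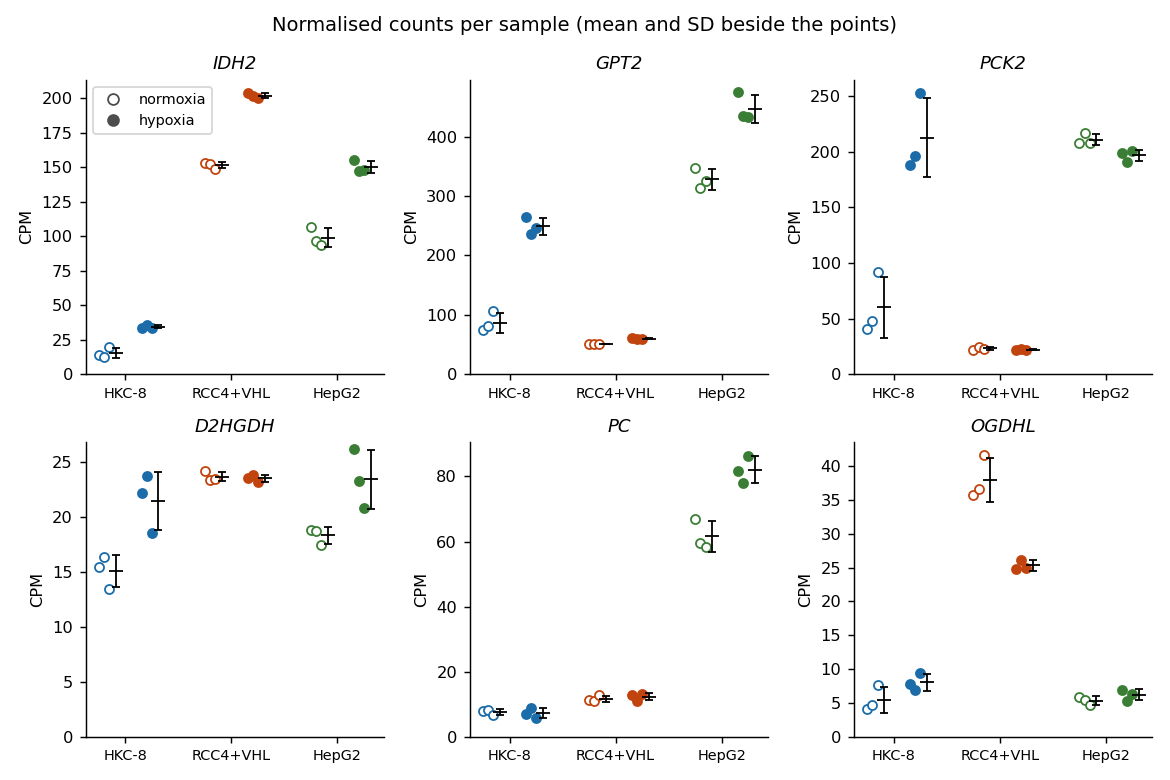
TMM-scaled CPM of 6 genes in each of the 18 samples (open points normoxia, filled points hypoxia, black marks the mean and SD of 3 samples, each axis from 0). IDH2 and GPT2 rise in all lines, PCK2 in HKC-8 cells (40.9 to 91.5 CPM in normoxia, 188 to 253 in hypoxia), D2HGDH in HKC-8 and HepG2 cells and PC in HepG2 cells, and OGDHL falls in RCC4+VHL cells.

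Of the 13 matrix enzymes of the cycle, none was induced and 4 were repressed in HKC-8 cells, against 11.2% and 9.12% of all genes tested. With the replicate block the counts there were 1 (OGDHL) and 10, against 21% and 21.6%. They were 1 and 8 in the fit of all 18 samples, against 16.4% and 16.4%. In RCC4+VHL cells 1 was induced and 9 were repressed, against 25.9% and 24.2%, or 0 and 4 in the fit of all 18 samples, against 12.2% and 9.27%. In HepG2 cells none was induced and 6 were repressed, against 19.9% and 19.2%. At an unadjusted p under 0.05 in the edgeR test, 1 was higher in HKC-8 (OGDHL) and 1 in HepG2 cells (SUCLG2), and DESeq2 called 0 and 1 (SUCLG2) induced. IDH3A encodes the catalytic subunit of the NAD-dependent isocitrate dehydrogenase. It was at 120, 121 and 100 CPM in normoxic and 88.7, 92.7 and 72.7 CPM in hypoxic HKC-8 cells, and its log2 fold change was -0.43 (SE 0.11, adjusted p = 0.0293). RCC4+VHL cells held 48.8, 49.7 and 49.8 CPM of it in normoxia and 39.6, 43.2 and 39.8 CPM in hypoxia (-0.28, 0.05, adjusted p = 5.65e-05). In HepG2 cells it was at 51.6, 48.0 and 54.3 CPM in normoxia and 40.1, 39.2 and 40.4 CPM in hypoxia (-0.36, 0.07, adjusted p = 0.000836). The conditions did not overlap in any line. The exons of IDH3A are overlapped over 63.9% of their length by ACSBG1 on the opposite strand. Whether the counting used strand is not given in the sources used here, so reads of the 2 genes may not be separable. Its partner subunits moved less evenly: IDH3G was repressed in RCC4+VHL cells (-0.20, adjusted p = 0.00177), and IDH3B was called in no line, with -0.19, -0.03 and 0.09 in HKC-8, RCC4+VHL and HepG2 cells. With the replicate block in HKC-8 cells, IDH3B (adjusted p = 0.0197) and IDH3G (0.0104) also fell.

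FH encodes fumarase, which hydrates fumarate to malate. It was at 126, 138 and 115 CPM in normoxic and 94.9, 107 and 94.0 CPM in hypoxic HKC-8 cells, a log2 fold change of -0.36 (SE 0.09, adjusted p = 0.0266). Its fall in RCC4+VHL cells was from 162, 156 and 161 to 141, 139 and 137 CPM (-0.20, 0.03, adjusted p = 5.26e-05), and in HepG2 cells from 93.7, 90.7 and 93.3 to 83.2, 82.3 and 80.6 CPM (-0.17, 0.06, adjusted p = 0.023). No hypoxic sample reached the lowest normoxic one of its line. CS, citrate synthase, which forms citrate at the entry of the cycle, fell in HKC-8 (-0.34, adjusted p = 0.0301) and RCC4+VHL cells (-0.15, adjusted p = 0.000355), and was at -0.08 in HepG2 cells (adjusted p = 0.305). In HKC-8 cells the calls of IDH3A, FH and CS were lost without normoxia replicate 1 or 2 or hypoxia replicate 1 or 3, with an adjusted p of 0.0764 to 0.115 for IDH3A, 0.0797 to 0.109 for FH and 0.0879 to 0.125 for CS. In HepG2 cells the call of FH was lost without normoxia replicate 1 or any 1 of the hypoxic samples (adjusted p = 0.0685 to 0.0789).

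Succinyl-CoA ligase pairs 1 alpha subunit, SUCLG1, with a beta subunit that sets the nucleotide, SUCLG2 for GTP or SUCLA2 for ATP, and the 3 transcripts did not move together. SUCLG1 stood at 111, 121 and 91.9 CPM in normoxic and at 75.1, 73.7 and 69.9 CPM in hypoxic HepG2 cells, a log2 fold change of -0.56 (SE 0.09, adjusted p = 0.000184). It fell by 0.30 on the log2 scale in RCC4+VHL cells (0.04, adjusted p = 1.34e-06), and in HKC-8 cells it was at -0.23 (0.09, adjusted p = 0.092, and 0.00858 with the replicate block). With the lines fitted apart on all their samples and without the block, SUCLG2 was the only matrix enzyme that edgeR called upwards, in RCC4+VHL cells. It rose there from 79.1, 79.5 and 79.1 to 87.2, 96.0 and 85.9 CPM (0.18, 0.04, adjusted p = 0.00167), a call lost in the fit of all 18 samples. It was at 0.06 (adjusted p = 0.712) in HKC-8 and 0.16 (adjusted p = 0.052, and 0.0332 without normoxia replicate 3) in HepG2 cells. SUCLA2 fell in HKC-8 cells (-0.36, 0.08, adjusted p = 0.0122) and HepG2 cells (-0.17, 0.06, adjusted p = 0.0402), and was at 0.06 in RCC4+VHL cells (0.04, adjusted p = 0.286). The call was lost in HKC-8 cells without normoxia replicate 1 (adjusted p = 0.0692), and in HepG2 cells without hypoxia replicate 1 or 3 or normoxia replicate 1 or 2 (0.0708 to 0.147). Per kilobase, the ratio of SUCLG2 to SUCLA2 went from 0.788 ± 0.0887 to 1.06 ± 0.141 in HKC-8 cells and from 1.21 ± 0.0817 to 1.52 ± 0.0607 in HepG2 cells, without overlap (SD, n = 3). In RCC4+VHL cells it was 1.13 ± 0.0445 and 1.22 ± 0.0702, and the conditions overlapped.

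The 2-oxoglutarate dehydrogenase complex consists of OGDH or its relative OGDHL, the succinyltransferase DLST and the lipoamide dehydrogenase DLD, which other dehydrogenase complexes share. OGDHL showed the largest fall among the calls, in RCC4+VHL cells, from 35.7, 36.6 and 41.6 to 24.8, 26.2 and 25.0 CPM (-0.58, SE 0.06, adjusted p = 3.11e-08). In HKC-8 cells it was at 4.04, 4.67 and 7.65 CPM in normoxia and at 7.85, 6.87 and 9.41 CPM in hypoxia. The groups overlapped there through normoxia replicate 3, and the log2 fold change of 0.56 (0.24) had an adjusted p of 0.126, or 0.00531 with the replicate block. Without that sample it was 0.88 (adjusted p = 0.00879). In HepG2 cells OGDHL lay between 4.65 and 6.95 CPM in all samples (0.22, 0.14, adjusted p = 0.238). OGDH was repressed in RCC4+VHL cells (-0.17, adjusted p = 0.000349), DLST in HepG2 cells (-0.25, adjusted p = 0.00323), and DLD in RCC4+VHL (-0.11, adjusted p = 0.0156) and HepG2 cells (-0.20, adjusted p = 0.028). The call of DLD was lost in RCC4+VHL cells without hypoxia replicate 1 or 3 (adjusted p = 0.0529 to 0.0795), and in HepG2 cells without any 1 of the samples other than normoxia replicate 2 (0.0521 to 0.0922). MDH2, the malate dehydrogenase of the matrix, was repressed in RCC4+VHL cells (-0.19, adjusted p = 6.43e-05) and was at -0.17 in HKC-8 (adjusted p = 0.305, and 0.0414 with the block) and -0.06 in HepG2 cells (adjusted p = 0.444). In HKC-8 cells OGDH (adjusted p = 0.0263) and DLD (0.00734) also fell with the block.

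**Figure D3:**
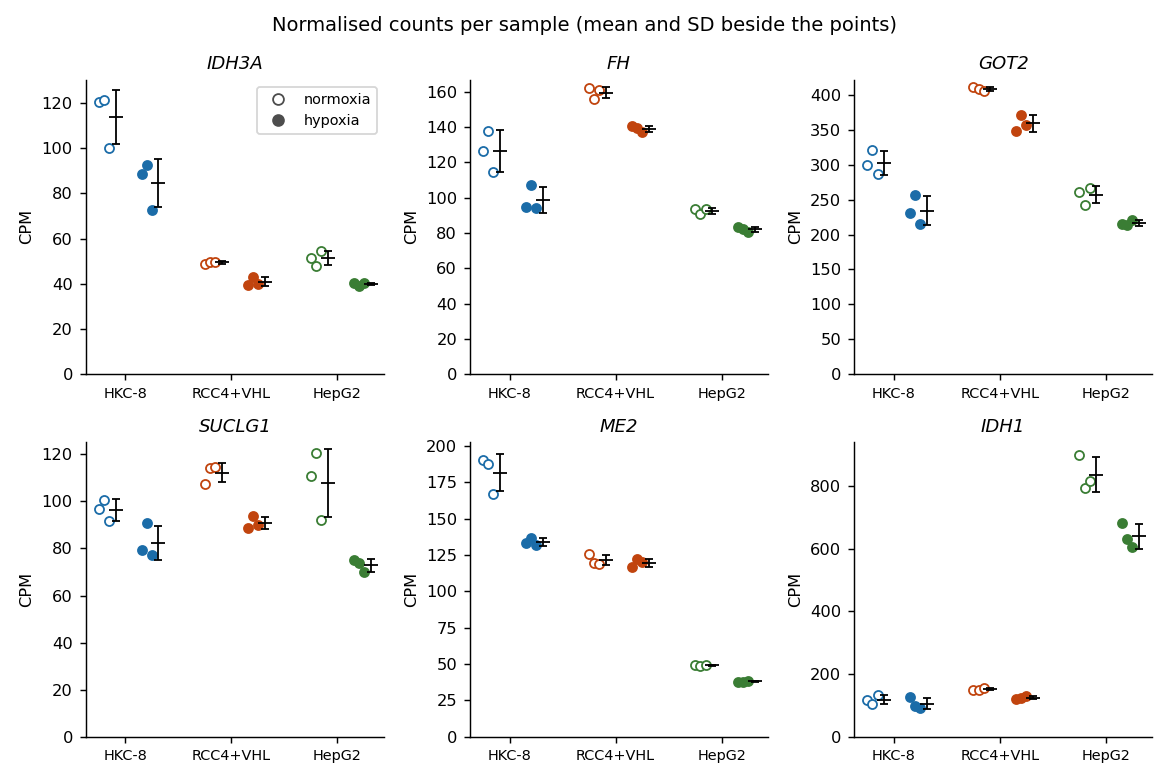
TMM-scaled CPM of 6 further genes in each of the 18 samples (open points normoxia, filled points hypoxia, black marks the mean and SD of 3 samples, each axis from 0). IDH3A, FH and GOT2 lie lower in hypoxia in each line, SUCLG1 falls furthest in HepG2 cells, ME2 lies lower in HKC-8 and HepG2 cells and not in RCC4+VHL cells, and IDH1 is highest in HepG2 cells (605 to 899 CPM).

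PCK2, the mitochondrial PEP carboxykinase, which makes PEP from oxaloacetate, showed the largest change of all the genes, and its call was made in HKC-8 cells alone. It stood at 40.9, 47.5 and 91.5 CPM in normoxic and at 188, 196 and 253 CPM in hypoxic HKC-8 cells, a log2 fold change of 1.82 (SE 0.27, adjusted p = 0.00305). All hypoxic samples were above the highest normoxic one, which was replicate 3, and replicate 3 was also the highest in hypoxia. With the replicate block the log2 fold change was 1.90 (0.12, adjusted p = 1.46e-06). The RCC4+VHL samples all lay between 21.5 and 24.5 CPM (-0.08, 0.06, adjusted p = 0.326). In HepG2 cells it was at 208, 217 and 208 CPM in normoxia and 199, 191 and 201 CPM in hypoxia (-0.10, 0.06, adjusted p = 0.176). PCK1, the cytosolic isoform known from liver and kidney gluconeogenesis, was nearly absent. Its counts were 0, 6 and 0 in normoxic and 4, 5 and 3 in hypoxic HKC-8 samples, and 0 or 1 in every RCC4+VHL sample. In HepG2 cells they were 20, 4 and 13 in normoxia and 27, 15 and 11 in hypoxia, where the gene passed the filter without a call (adjusted p = 0.416).

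PC, pyruvate carboxylase, which makes oxaloacetate from pyruvate, rose in HepG2 cells from 67.1, 59.6 and 58.2 to 81.8, 78.0 and 86.4 CPM, a log2 fold change of 0.41 (SE 0.07, adjusted p = 0.000441). In HKC-8 cells it lay between 5.77 and 8.79 CPM and in RCC4+VHL cells it was at 11.7 ± 0.965 CPM in normoxia and 12.4 ± 1.19 CPM in hypoxia (SD, n = 3), with overlapping groups in both lines (adjusted p = 0.779 and 0.481). The malic enzymes turn malate into pyruvate, ME1 in the cytosol with NADP and ME2 and ME3 in the mitochondria. ME2 fell in HKC-8 cells from 191, 187 and 167 to 133, 137 and 132 CPM (-0.44, 0.08, adjusted p = 0.00616). In HepG2 cells it fell from 49.5, 48.9 and 49.5 to 37.9, 37.8 and 38.5 CPM (-0.37, 0.06, adjusted p = 0.000324). The RCC4+VHL samples overlapped between 117 and 126 CPM (-0.02, 0.04, adjusted p = 0.677). ME1 fell in RCC4+VHL cells (-0.18, 0.04, adjusted p = 0.000622) and was at -0.22 in HKC-8 cells (0.08, adjusted p = 0.0718, and 0.00848 with the block). HepG2 cells had nearly no transcript of ME1 or ME3. The counts of ME1 there were 4, 3 and 12 in normoxia and 9, 8 and 16 in hypoxia, and those of ME3 were 4, 4 and 0 in normoxia and 8, 1 and 4 in hypoxia, so neither was tested. ME3 was at 2.16 to 3.09 CPM in HKC-8 and 26.1 to 30.8 CPM in RCC4+VHL cells and had no call (adjusted p = 0.565 and 0.0553).

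GPT2, the mitochondrial alanine aminotransferase, which forms 2-oxoglutarate and alanine from glutamate and pyruvate, was the other gene induced in all lines when these were fitted apart. It rose from 74.2, 80.6 and 106 to 264, 236 and 247 CPM in HKC-8 cells, a log2 fold change of 1.52 (SE 0.13, adjusted p = 0.000139). It rose in RCC4+VHL cells from 51.4, 51.1 and 50.3 to 60.9, 59.2 and 58.6 CPM (0.23, 0.04, adjusted p = 0.000155, and 0.106 in the fit of all 18 samples). In HepG2 cells it rose from 348, 314 and 325 to 475, 434 and 434 CPM (0.44, 0.06, adjusted p = 0.000134). In each line all hypoxic samples were above all normoxic ones, and as for PCK2 and IDH2 the highest of the normoxic HKC-8 samples was replicate 3.

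GOT2, the mitochondrial aspartate aminotransferase, fell in all lines. It stood at 300, 321 and 287 CPM in normoxic and 231, 256 and 215 CPM in hypoxic HKC-8 cells (-0.37, SE 0.09, adjusted p = 0.0207). In RCC4+VHL cells it went from 412, 409 and 406 to 348, 372 and 357 CPM (-0.19, 0.03, adjusted p = 5.12e-05), and in HepG2 cells from 261, 243 and 266 to 216, 213 and 221 CPM (-0.24, 0.06, adjusted p = 0.00489). The conditions did not overlap in any line, but the call in HKC-8 cells was lost without normoxia replicate 1 or 2 or hypoxia replicate 1 or 3 (adjusted p = 0.0658 to 0.0849). Its cytosolic counterpart GOT1 was called in RCC4+VHL cells (-0.22, 0.04, adjusted p = 9.74e-05) and was at -0.05 (adjusted p = 0.641) in HKC-8 and -0.09 (adjusted p = 0.47) in HepG2 cells. MDH1, the cytosolic malate dehydrogenase of the shuttle, was called in RCC4+VHL cells (-0.10, adjusted p = 0.0199), a call lost without hypoxia replicate 1 or 3 (adjusted p = 0.0767 to 0.0888). It was at -0.07 in HKC-8 (adjusted p = 0.534) and -0.25 in HepG2 cells (adjusted p = 0.0802), where it was -0.37 without normoxia replicate 3 (adjusted p = 0.00128).

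GLS2, one of the glutaminases, fell in HepG2 cells from 11.7, 11.4 and 10.4 to 7.74, 7.88 and 8.60 CPM (-0.47, SE 0.10, adjusted p = 0.00236). It was low in HKC-8 cells, at 1.32, 1.20 and 1.69 CPM in normoxia and 2.05, 1.51 and 2.25 CPM in hypoxia, with overlap (0.46, 0.23, adjusted p = 0.19). In RCC4+VHL cells it had 6, 1 and 6 counts in normoxia and 2, 1 and 1 in hypoxia and was not tested. The exons of GLS2 are overlapped over 81.3% of their length by SPRYD4 on the opposite strand, so the same limit holds as for IDH3A. GLUD1, glutamate dehydrogenase, which releases 2-oxoglutarate from glutamate, was called in no line, with -0.08 (adjusted p = 0.503) in HKC-8, 0.07 (0.0607) in RCC4+VHL and -0.07 (0.495) in HepG2 cells. GLUD1 has a near-identical copy, GLUD2, and reads that mapped to several places were removed by the authors, so its level is uncertain.

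Summed over all 30 genes, the level was 3816 ± 139 CPM in normoxic and 3828 ± 120 CPM in hypoxic HKC-8 cells (SD, n = 3). It was 4238 ± 16.2 and 4002 ± 41.6 CPM in RCC4+VHL cells and 4919 ± 169 and 4614 ± 122 CPM in HepG2 cells, and the conditions overlapped only in HKC-8 cells. The 13 matrix enzymes alone summed to 1755 ± 94.2 and 1473 ± 98.7 CPM in HKC-8, to 1968 ± 15.7 and 1784 ± 17.4 CPM in RCC4+VHL and to 1439 ± 20.2 and 1323 ± 10.6 CPM in HepG2 cells, lower in hypoxia in every line without overlap. In HKC-8 cells each of the other 3 role groups summed to more in hypoxia, also without overlap. These sums are dominated by the most abundant transcripts and were not tested.

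Whether the response differed between lines was tested as an interaction of line and oxygen. Between HKC-8 and HepG2 cells 4 of 30 genes differed, against 9.3% of all genes tested. The labels give the same oxygen level and duration for these lines, but the titles state 0.1% for HKC-8 and 0.5% for HepG2 cells. If the titles are right, line and oxygen level cannot be told apart here either. All 4 had the higher log2 fold change in HKC-8 cells: PCK2 by 1.92 (SE 0.30, adjusted p = 0.000808), GPT2 by 1.07 (0.15, adjusted p = 0.000441), GLS2 by 0.92 (0.23, adjusted p = 0.0221) and IDH2 by 0.57 (0.17, adjusted p = 0.0481). PCK2 and GPT2 passed whichever sample was left out. IDH2 passed only when HKC-8 normoxia replicate 3 was the sample left out, with an adjusted p of 0.0599 to 0.119 otherwise. GLS2 failed without replicate 1 or 2 of either condition of HepG2, or without replicate 1 or 2 of normoxic or replicate 1 or 3 of hypoxic HKC-8 cells (0.0507 to 0.0665). The number of genes that differed was 2 in 7 of these fits. With the replicate block 11 genes differed, against 20.1% of all genes, among them all 4 of the unpaired test. The 11 also included ME1 (-1.09, adjusted p = 0.0388), which had only 3 to 16 counts in the HepG2 samples.

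Between HKC-8 and RCC4+VHL cells 7 of 29 genes differed, against 15.2% of all genes tested. The log2 fold change was higher in HKC-8 cells for PCK2, GPT2, OGDHL, IDH2 and D2HGDH, by 1.91 (SE 0.33, adjusted p = 0.00185), 1.31 (0.15, adjusted p = 0.000119), 1.16 (0.26, adjusted p = 0.00998), 0.78 (0.17, adjusted p = 0.00717) and 0.54 (0.13, adjusted p = 0.0134). It was lower there for SUCLA2 and ME2, by -0.40 (0.08, adjusted p = 0.00585) and -0.40 (0.08, adjusted p = 0.00426). With the replicate block 11 genes differed, against 28.7% of all genes, and these included the 7. They also included GLS2 (2.14, adjusted p = 0.0483), which had only 1 to 6 counts in the RCC4+VHL samples. The difference of D2HGDH was lost without hypoxia replicate 3 of RCC4+VHL cells (adjusted p = 0.0505). Between RCC4+VHL and HepG2 cells 7 of 30 genes differed, against 22.6% of all genes tested. The response was lower in RCC4+VHL cells for OGDHL (-0.81, 0.14, adjusted p = 0.000426), D2HGDH (-0.37, 0.11, adjusted p = 0.0178), PC (-0.34, 0.11, adjusted p = 0.0332), IDH3G (-0.25, 0.09, adjusted p = 0.0487) and GPT2 (-0.23, 0.07, adjusted p = 0.0328), and higher for ME2 (0.34, 0.07, adjusted p = 0.000877) and SUCLA2 (0.22, 0.07, adjusted p = 0.0388). OGDHL and ME2 passed in this last pair whichever sample was left out. The other 5 were each lost without hypoxia replicate 1 of HepG2 cells, which left 2 genes, and in all D2HGDH was lost in 1 of 12 such fits (adjusted p = 0.0648), PC in 6 (0.0522 to 0.111), GPT2 in 7 (0.0515 to 0.0993), SUCLA2 in 7 (0.0506 to 0.101) and IDH3G in 10 (0.0511 to 0.147). In both comparisons with RCC4+VHL cells the cell line and the labelled oxygen level and duration cannot be told apart. The 3 comparisons share samples and are not independent.

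**Figure D4:**
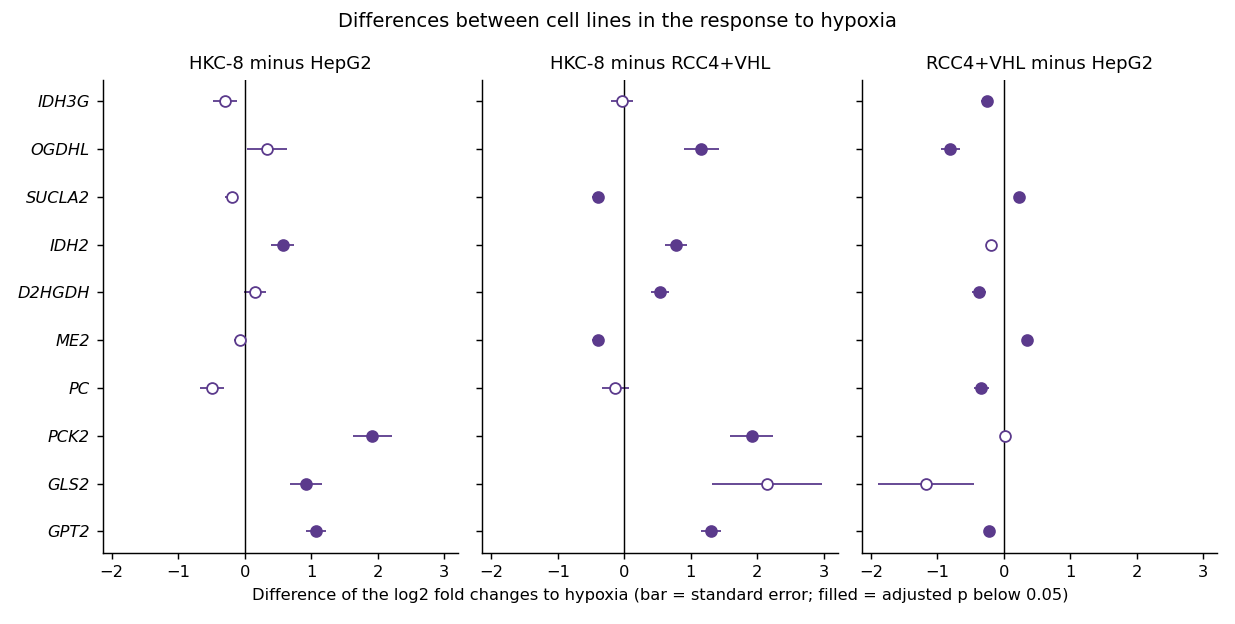
Difference between 2 cell lines in the log2 fold change to hypoxia, for the 10 genes that differed in at least 1 pair of lines (bars are standard errors, filled points have an adjusted p below 0.05). PCK2 and GPT2 stand out in both comparisons with HKC-8 cells, and OGDHL in both comparisons with RCC4+VHL cells.

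In normoxia the lines differed in most of these genes, as they did in most genes. HKC-8 and HepG2 cells differed in 25 of 29 genes, against 83% of all genes tested, HKC-8 and RCC4+VHL cells in 25 of 29, against 80.8%, and RCC4+VHL and HepG2 cells in 26 of 29, against 83.3%. A difference of at least 4-fold was found for 7, 4 and 8 genes in these pairs, against 27.8%, 24.6% and 30.8% of all genes tested. HepG2 cells had more IDH1 than HKC-8 (7.53-fold, adjusted p = 2.05e-12) and RCC4+VHL cells (5.59-fold, adjusted p = 8.86e-12), and more PC (8.66-fold and 5.35-fold, adjusted p = 3.69e-12 and 4.18e-11) and GPT2 (4.04-fold and 6.56-fold, adjusted p = 6.65e-10 and 3.59e-11). They also had more GLS2 than HKC-8 cells (8.46-fold, adjusted p = 5.83e-09) and more PCK2 than RCC4+VHL cells (9.29-fold, adjusted p = 1.28e-08). IDH2 was lowest in HKC-8 cells, below HepG2 by 6.92-fold (adjusted p = 1.41e-10) and below RCC4+VHL by 10.4-fold (adjusted p = 2.97e-11). RCC4+VHL cells had the most OGDHL, above HKC-8 by 7.28-fold (adjusted p = 6.73e-09) and above HepG2 by 6.99-fold (adjusted p = 1.01e-08), and 10.2-fold more ME3 than HKC-8 cells (adjusted p = 2.2e-10). For ME1 and ME3 in HepG2 cells and GLS2 in RCC4+VHL cells the counts given above are too few for a useful fold.

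Per kilobase of the main transcript, MDH1 was among the 2 most abundant of the 30 transcripts in each line, at 173 ± 9.31 RPKM in HKC-8, 231 ± 3.19 in RCC4+VHL and 285 ± 51.9 in HepG2 cells (SD, n = 3, the CPM divided by the length in kilobases). CS led in HKC-8 cells with 181 ± 11.9 RPKM, close to MDH1. IDH1 led in HepG2 cells with 378 ± 26.6 RPKM, against 50.2 ± 6.21 in HKC-8 and 67.6 ± 1.28 in RCC4+VHL cells. IDH2 stood at 5.63 ± 1.37 RPKM in HKC-8, 39.0 ± 2.80 in HepG2 and 58.8 ± 1.36 in RCC4+VHL cells. PCK2 stood at 101 ± 1.79 RPKM in HepG2, 27.0 ± 12.5 in HKC-8 and 10.9 ± 0.617 in RCC4+VHL cells, and GPT2 at 86.3 ± 5.06, 21.4 ± 4.18 and 13.1 ± 0.243 RPKM in the same order. SUCLA2 had the smallest ratio between the highest and the lowest line, from 28.2 ± 1.26 RPKM in HKC-8 to 33.9 ± 0.512 in HepG2 cells.

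**Figure D5:**
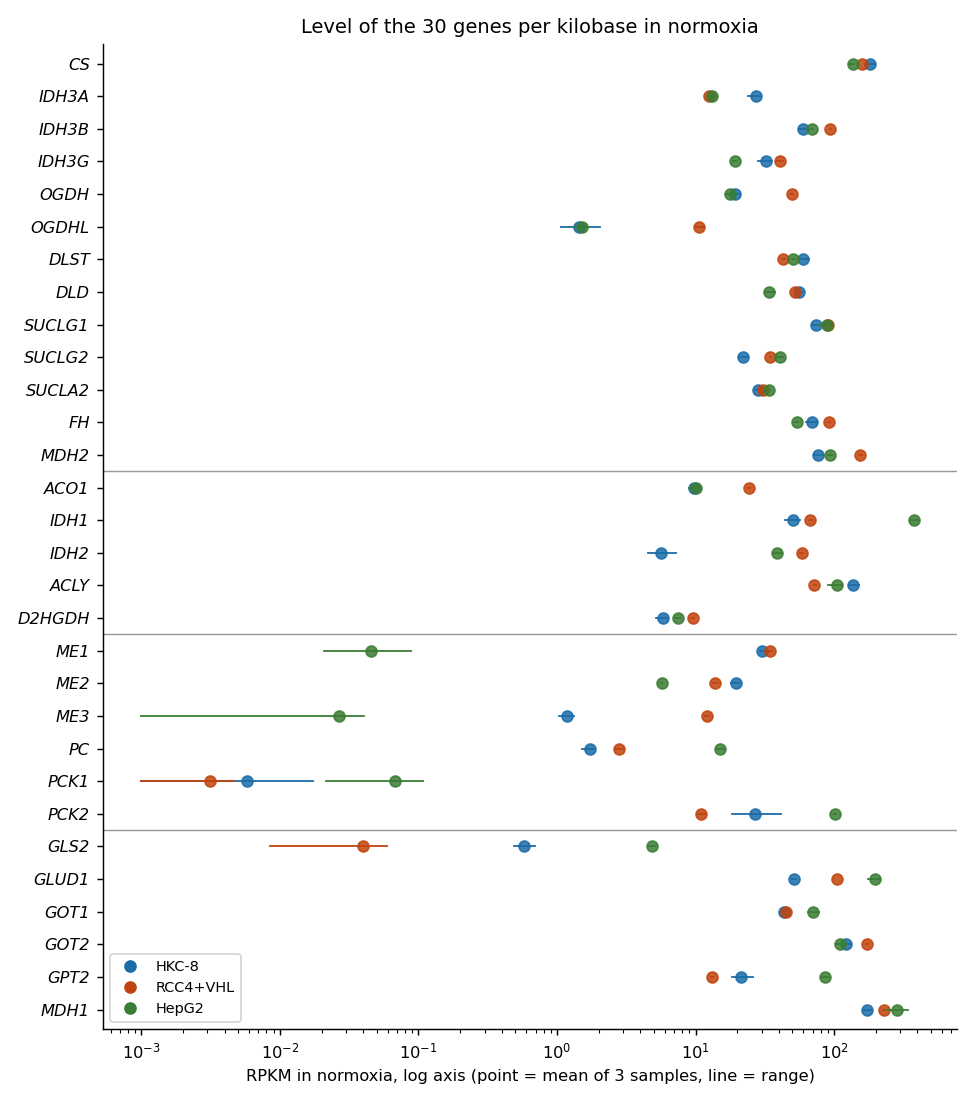
Normoxic level of the 30 genes in RPKM (CPM per kilobase) on a log axis (points are means of 3 samples, lines their range, drawn from 0.001 where a sample had none). Most matrix enzymes lie close together in the 3 lines, while IDH1, IDH2, PC, PCK2, GPT2, GLS2, ME1, ME3 and OGDHL are spread widely.

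A further 21 genes next to these in the pathway, such as the subunits of succinate dehydrogenase, the mitochondrial carriers of citrate, malate, aspartate and pyruvate, and GLUL, were looked at as a list. Of 20 tested in HKC-8 cells, 2 were induced and 4 repressed, against 11.2% and 9.12% of all genes, or 4 and 8 with the replicate block, against 21% and 21.6%. Of 19 tested in RCC4+VHL cells, 3 were induced and 14 repressed, against 25.9% and 24.2%, and the fit of all 18 samples called 0 and 5 of 21, against 12.2% and 9.27%. Of 20 tested in HepG2 cells none was induced by edgeR or DESeq2 (SDHA, 1 gene, was higher at an unadjusted p under 0.05), against 19.9%, and 6 were repressed, against 19.2%. The median log2 fold change was -0.25, -0.18 and -0.13 in the same order, and no called gene of the list changed by 2-fold. Those named next were chosen after their values were seen. SDHB and SDHD, subunits of succinate dehydrogenase, were repressed in all lines, at -0.26 and -0.41 in HKC-8, -0.25 and -0.25 in RCC4+VHL and -0.46 and -0.32 in HepG2 cells. SDHC was repressed in RCC4+VHL (-0.16) and HepG2 cells (-0.22) and was at -0.11 in HKC-8 cells (adjusted p = 0.267). SDHA, the flavoprotein subunit, went the other way, induced in RCC4+VHL cells (0.11, adjusted p = 0.0173) and at 0.16 (adjusted p = 0.287) in HKC-8 and 0.15 (adjusted p = 0.0748) in HepG2 cells. MPC1 and MPC2, which form the mitochondrial pyruvate carrier, fell by 0.80 and 0.70 on the log2 scale in HepG2 cells.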

How the data were processed

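PolyA+ RNA of 18 samples was analysed. The deposited values are raw counts of reads per gene. Per the labels and the methods of the study, the authors trimmed reads with Trim Galore 0.3.3, aligned them to GRCh37 with TopHat2 2.0.8b and Bowtie 1.0.0, removed fragments that mapped to several places with SAMtools 0.1.19, and counted reads on UCSC genes with HTSeq 0.5.4p3 in its intersection-strict mode. Reads that lie on overlapping genes or near-identical copies can be lost this way, and use of strand in counting is not given in the sources used here.

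From the counts onwards, values were computed with R 4.3.3, edgeR 4.0.16 and Python 3.11.15. Genes were kept by filterByExpr (minimum count 10), scaled by TMM and compared by the quasi-likelihood test, with Benjamini-Hochberg adjustment over all genes tested and a threshold of 0.05. Lines were fitted apart for hypoxia against normoxia, pairs of lines in 1 fit for interactions, and all normoxic samples together in 1 fit for normoxic levels. All adjusted p-values are from edgeR. The standard error is the log2 fold change over the square root of F. RPKM and overlaps used the main (Ensembl canonical) GENCODE transcript on GRCh37.

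All 30 genes were named. Values of every sample were given for called genes whose log2 fold change was 0.58 or more in size, for those under 1 CPM in a line, and for others the results turn on. The genes and lists were chosen with earlier results of these data known. Same-numbered samples of the 2 conditions correlated in their deviations from the group means in HKC-8 cells (r = 0.109 to 0.453). In RCC4+VHL (-0.0103 to 0.0333) and HepG2 cells (0.0617 to 0.184) not every pair passed 0.1. However, 5 HKC-8, 6 HepG2 and 3 RCC4+VHL samples of 6 per line correlated best with their own number. Normoxia replicate 1 of HKC-8 cells correlated no less with hypoxia replicate 2 (0.116) than with hypoxia replicate 1 (0.109). The numbers come from the labels, and whether they mark true pairs in any line is not known. Alternatives were DESeq2 1.42.0, other size factors, other filters, the replicate block, 1 fit of 18 samples and each sample left out. The test was tried on simulated counts first, and the share of small changes that it called in each line is given in the results.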

Additional observations from a re-analysis of the deposited data

Results flagged for a closer look

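The results below stood out because the response of a gene to hypoxia differed between 2 cell lines in a test of the difference itself (edgeR interaction, adjusted p under 0.05). Between HKC-8 and HepG2 cells the log2 fold change differed by 1.92 for PCK2, 1.07 for GPT2, 0.92 for GLS2 and 0.57 for IDH2, each higher in HKC-8 cells. Between HKC-8 and RCC4+VHL cells it differed by 1.91 for PCK2, 1.31 for GPT2, 1.16 for OGDHL, 0.78 for IDH2 and 0.54 for D2HGDH, and by -0.40 for SUCLA2 and -0.40 for ME2. Between RCC4+VHL and HepG2 cells it differed by -0.81 for OGDHL, -0.37 for D2HGDH, -0.34 for PC, -0.25 for IDH3G and -0.23 for GPT2, and by 0.34 for ME2 and 0.22 for SUCLA2. For OGDHL the fitted responses had opposite signs in RCC4+VHL and in the other lines. In the unpaired tests of each line apart with all its samples, only that in RCC4+VHL cells was called. In the fit of all 18 samples 1 matrix enzyme was induced in HKC-8 cells. With that line fitted apart, OGDHL had the highest log2 fold change of the matrix enzymes (0.56). The rise in HKC-8 cells was called with the replicate block (0.60, adjusted p = 0.00531) and without normoxia replicate 3 (0.88, adjusted p = 0.00879). Among the 3 samples, normoxia replicate 3 of HKC-8 cells was the highest for PCK2 (91.5 CPM), GPT2 (106 CPM), IDH2 (19.4 CPM) and OGDHL (7.65 CPM), and the part of this sample in the results was not tested beyond leaving it out. In the comparisons with RCC4+VHL cells, line and labelled exposure cannot be told apart. The same holds for HKC-8 against HepG2 cells if the 0.1% oxygen in the titles of hypoxic HKC-8 samples is right.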

How the results depend on the processing

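With DESeq2, with median-of-ratios size factors and with either other filter on low counts, every count of called genes over the 30 stayed within 1.5 times the reported one, and among the matrix enzymes DESeq2 raised the induced in HepG2 cells from 0 to 1. With the replicate block, repressed genes in HKC-8 cells went from 6 to 13, and genes whose response differed went from 4 to 11 between HKC-8 and HepG2 cells and from 7 to 11 between HKC-8 and RCC4+VHL cells. Also with the block, the matrix enzymes in HKC-8 cells went from 0 to 1 induced and from 4 to 10 repressed, and the neighbouring genes from 2 to 4 and from 4 to 8. The block moved no other count over the 30 genes by over 1.5 times. In 1 fit of 18 samples, which share 1 estimate of the spread, repressed genes in HKC-8 cells came to 10, induced and repressed genes in RCC4+VHL cells to 1 and 6, and differences between RCC4+VHL and HepG2 cells to 2. Beside the RCC4+VHL calls named in the results, the HepG2 calls of FH (adjusted p = 0.0518) and GLS2 (0.0506) were lost in that fit, while the cause was not tested.

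With each sample left out in turn, HKC-8 cells had 3 to 5 induced and 1 to 8 repressed genes, RCC4+VHL cells 3 to 4 and 13 to 15, and HepG2 cells 3 to 5 and 7 to 10. The response differed in 2 to 6 genes between HKC-8 and HepG2, 6 to 10 between HKC-8 and RCC4+VHL and 2 to 8 between RCC4+VHL and HepG2 cells, and the normoxic level in 24 to 27, 24 to 25 and 24 to 27. The sign turned in 12 of these fits, in values close to 0 and without a call. The ranges were -0.20 to 0.10 for IDH3G between HKC-8 and RCC4+VHL cells and -0.011 to 0.0762 in HepG2 cells, -0.0128 to 0.0629 for PCK2 between RCC4+VHL and HepG2 cells, -0.25 to 0.0536 for PC and -0.0399 to 0.127 for SUCLG2 in HKC-8 cells, and -0.0206 to 0.0018 for D2HGDH and -0.0405 to 0.0011 for ME2 in RCC4+VHL cells. Leaving out 1 sample added a call in 12 fits. Beyond those in the results these were SUCLG1 (adjusted p = 0.0308) and IDH3B (0.0441) without hypoxia replicate 2 and ACLY (0.0477) without normoxia replicate 2 in HKC-8 cells, GLUD1 (0.0488) without hypoxia replicate 1 and ME3 (0.0405) without hypoxia replicate 2 in RCC4+VHL cells, and 4 differences in response, those of PC, IDH2 and GLS2. PCK1, ME1, ME3 and GLS2 had too few counts in at least 1 line for a test there.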
